A study of Schizosaccharomyces pombe with 12 samples.

Results

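The genes described here are the neighbours of *bmc1*, the fission yeast gene for a member of the MePCE/Bin3 family, on chromosome II. They were taken as the rows of the count table whose systematic names start with SPBC2A9 or SPBC2D10, adjoining clones of the genome project that hold *bmc1* and the genes around it, leaving out *bmc1* itself (SPBC2A9.10) and the telomerase gene *est1* (SPBC2D10.13). This gave 29 of 7004 genes, 12 from the first clone and 17 from the second. In the RefSeq annotation of ASM294v3 they span 59.5 kb, II:2948592-3008103, with 10 genes to the left of *bmc1* and 19 to the right, of which 12 lie before *est1* and 7 beyond it. The locus was selected on the fold changes of *bmc1*Δ against its own wild type, which were known when these clones were chosen, so the values and the numbers of calls in that contrast are given below as a description only. They are no test of the locus, and nothing is read from them.

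The fission yeast genome is compact, and neighbouring genes often share a short promoter region, end toward each other or overlap at their transcribed ends. When a gene is replaced by a drug resistance cassette, the flanking genes keep their sequence but come to lie beside a foreign promoter and terminator, so the transcript levels of neighbours are a standard point to look at in a deletion strain. Sec22, the product of one of these neighbours, is a SNARE protein that helps vesicles fuse between the endoplasmic reticulum and the Golgi, and others encode parts of the replication machinery, chromatin factors and ribosome biogenesis proteins.

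The study asked how Bmc1 and Thc1 act in the making of telomerase, and RNA was sequenced from 12 log phase cultures of haploid cells grown in YES broth at 32 °C, 3 for each of 4 strains. The *bmc1*Δ strain (PP1861) is h+ leu1-32 ura4-D18 his3-D1 with ade6-M210 or ade6-M216 and carries natMX6 in place of the whole *bmc1* open reading frame, made in a fresh diploid with homology arms on both sides and recovered as a haploid after sporulation. The *bmc1* wild type (PP1860) has the same mating type and markers. The *thc1*Δ strain (PP1847) carries *his3* in place of *thc1* (SPCC18B5.09c) and was made by transforming the *thc1* wild type (PP138), a haploid of mating type h- with the markers leu1-32, ura4-D18, his3-D1 and ade6-M216. The last 3 strains have an intact *bmc1* locus. Each strain stands for 1 isolate, so the deletion, the cassette and anything else in that isolate cannot be told apart. The labels number the samples of a strain as replicates without saying how they were separated. The paper describes triplicate cultures for *thc1*Δ and its wild type. The p values measure the spread between the samples of a strain.

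Library totals ran between 33.57 M and 40.33 M counts. Replicates differed beyond counting error, and the first replicate of *thc1*Δ, *bmc1*Δ and the *bmc1* wild type stood apart from the other replicates of its strain. Levels are given as CPM, read counts scaled to library size with TMM factors over all 12 libraries. A gene was called in a comparison where the quasi-likelihood test of edgeR gave it an adjusted p, over all genes tested, below 0.05. Of the 29 genes, 28 had enough counts for a test, at between 223 counts (SPBC2A9.14) and 15292 counts (*fib1*) a library. The remaining gene, SPBC2A9.13, had 0 counts in all 12 libraries. It encodes an uncharacterized protein, and its annotated span of 241 nt lies wholly inside SPBC2A9.14 on the other strand. The span also lies wholly inside the non-coding transcript SPNCRNA.1567 on the same strand, which had between 354 and 497 counts a library. How reads shared with that transcript were counted is not given, so the 0 does not show that the gene is silent.

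*bmc1* was lower but not at 0 in its deletion strain. It had 15.4, 16.5 and 15.4 CPM in *bmc1*Δ, against 25.2, 26.1 and 25.2 CPM in the *bmc1* wild type, 28.7, 25.5 and 23.2 CPM in *thc1*Δ and 26.0, 26.9 and 27.8 CPM in the *thc1* wild type. All *bmc1*Δ libraries lay below all others. The annotated gene, II:2964103-2965576, has 1432 nt of exon and the replaced reading frame runs over II:2964227-2965075, so the row also holds untranslated sequence that the deletion left in place, 472 nt of it shared with *iss9* on the opposite strand. *est1*, which encodes a telomerase regulator and splits the genes on the right, had 17.9, 19.0 and 21.3 CPM in *bmc1*Δ and between 18.5 and 21.8 CPM in the other 9 libraries.

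The layout next to *bmc1* sets which genes face each other. On the left, *sec22* (II:2961165-2962672, minus strand) and *plp2* (II:2962818-2963818, plus strand) point away from each other across 145 nt, and *plp2* ends 284 nt before *bmc1* begins. On the right, *iss9* (II:2965105-2966608, minus strand) converges on *bmc1*, and *orc6* (II:2967253-2968262, plus strand) starts 644 nt beyond *iss9* and abuts *ess1* (II:2968263-2968952, minus strand) with no gap. The stretch shared by *sec22* and *plp2*, the gap in front of *bmc1* and the 300 nt in front of *orc6* are shown because the members nearest the deletion start from or face them. They are from RefSeq ASM294v3, plus strand, 5′ to 3′, with matches to TATAAA on either strand in capitals.
sec22-plp2 spacer, II:2962673-2962817: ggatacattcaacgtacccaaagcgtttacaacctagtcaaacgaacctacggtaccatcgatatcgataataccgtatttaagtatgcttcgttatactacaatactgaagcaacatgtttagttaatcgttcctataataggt
plp2-bmc1 gap, II:2963819-2964102: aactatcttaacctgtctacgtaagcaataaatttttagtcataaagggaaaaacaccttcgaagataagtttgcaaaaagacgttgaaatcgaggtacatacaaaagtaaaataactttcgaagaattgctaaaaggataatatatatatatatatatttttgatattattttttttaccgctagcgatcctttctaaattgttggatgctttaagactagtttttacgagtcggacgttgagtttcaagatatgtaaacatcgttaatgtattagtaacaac
before orc6, II:2966953-2967252: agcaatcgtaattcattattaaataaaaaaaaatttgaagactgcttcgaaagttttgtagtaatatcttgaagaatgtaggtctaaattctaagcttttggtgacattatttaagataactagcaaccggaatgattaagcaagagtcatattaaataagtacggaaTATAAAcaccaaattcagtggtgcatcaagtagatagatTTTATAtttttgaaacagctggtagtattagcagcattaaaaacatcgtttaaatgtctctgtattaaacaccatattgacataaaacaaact
The *sec22*-*plp2* spacer has a GC content of 36.6% and the gap before *bmc1* 28.9%, and neither holds TATAAA. None of the stretches holds ACGCGT, the MluI cell cycle box, which was also searched on both strands. The sequence before *orc6* has a GC content of 28.3% and holds TATAAA 2 times, once on each strand. Upstream windows of the same lengths for 5108 coding genes held at least 1 TATAAA in 28.2%, 49.1% and 51.2% of cases.

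In *bmc1*Δ relative to its own wild type, the fitted log2 fold changes of the 28 genes had a median of 0.087, with 22 above 0 and 6 below, and a range of -0.22 to 0.52. Over all 6232 genes tested the median was -0.0012. No member reached a 2-fold difference, the size the study required, in any of the 5 comparisons made here, where the study's criteria were met by 0% of all genes in this contrast, 2.71% in *bmc1*Δ against the *thc1* wild type, 1.16% in *bmc1*Δ against *thc1*Δ, 2.81% between the wild types and 1.2% in *thc1*Δ against its wild type. The count was also 0 at a 2-fold difference with an unadjusted p below 0.05 in edgeR and with DESeq2. *sec22* alone was called in this contrast, 1 of 28 genes where 0.0481% of all genes were called and 0.016% were called higher, and the count was 0 without *bmc1*Δ replicate 2 or 3 or *bmc1* wild type replicate 2 or 3. Without *bmc1* wild type replicate 1 the called gene was SPBC2A9.02 in its place. Same-numbered libraries of these strains deviated together, plainly so for replicate 1 alone. With the replicate as a block 11 of 28 genes were called where 3.21% of all genes were, 10 of them higher against 1.19% of all genes (SPBC2A9.02, *tvp23*, *hpz1*, SPBC2A9.14, *sec22*, *orc6*, *ess1*, *aly2*, *exg3* and *nap2*) and 1 lower against 2.02% (*iss9*). These counts come from the contrast on which the locus was selected, so their distance from the shares over all genes was set by that choice and is not a result. The comparisons with the other strains below share the same *bmc1*Δ libraries.

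**Figure D1:**
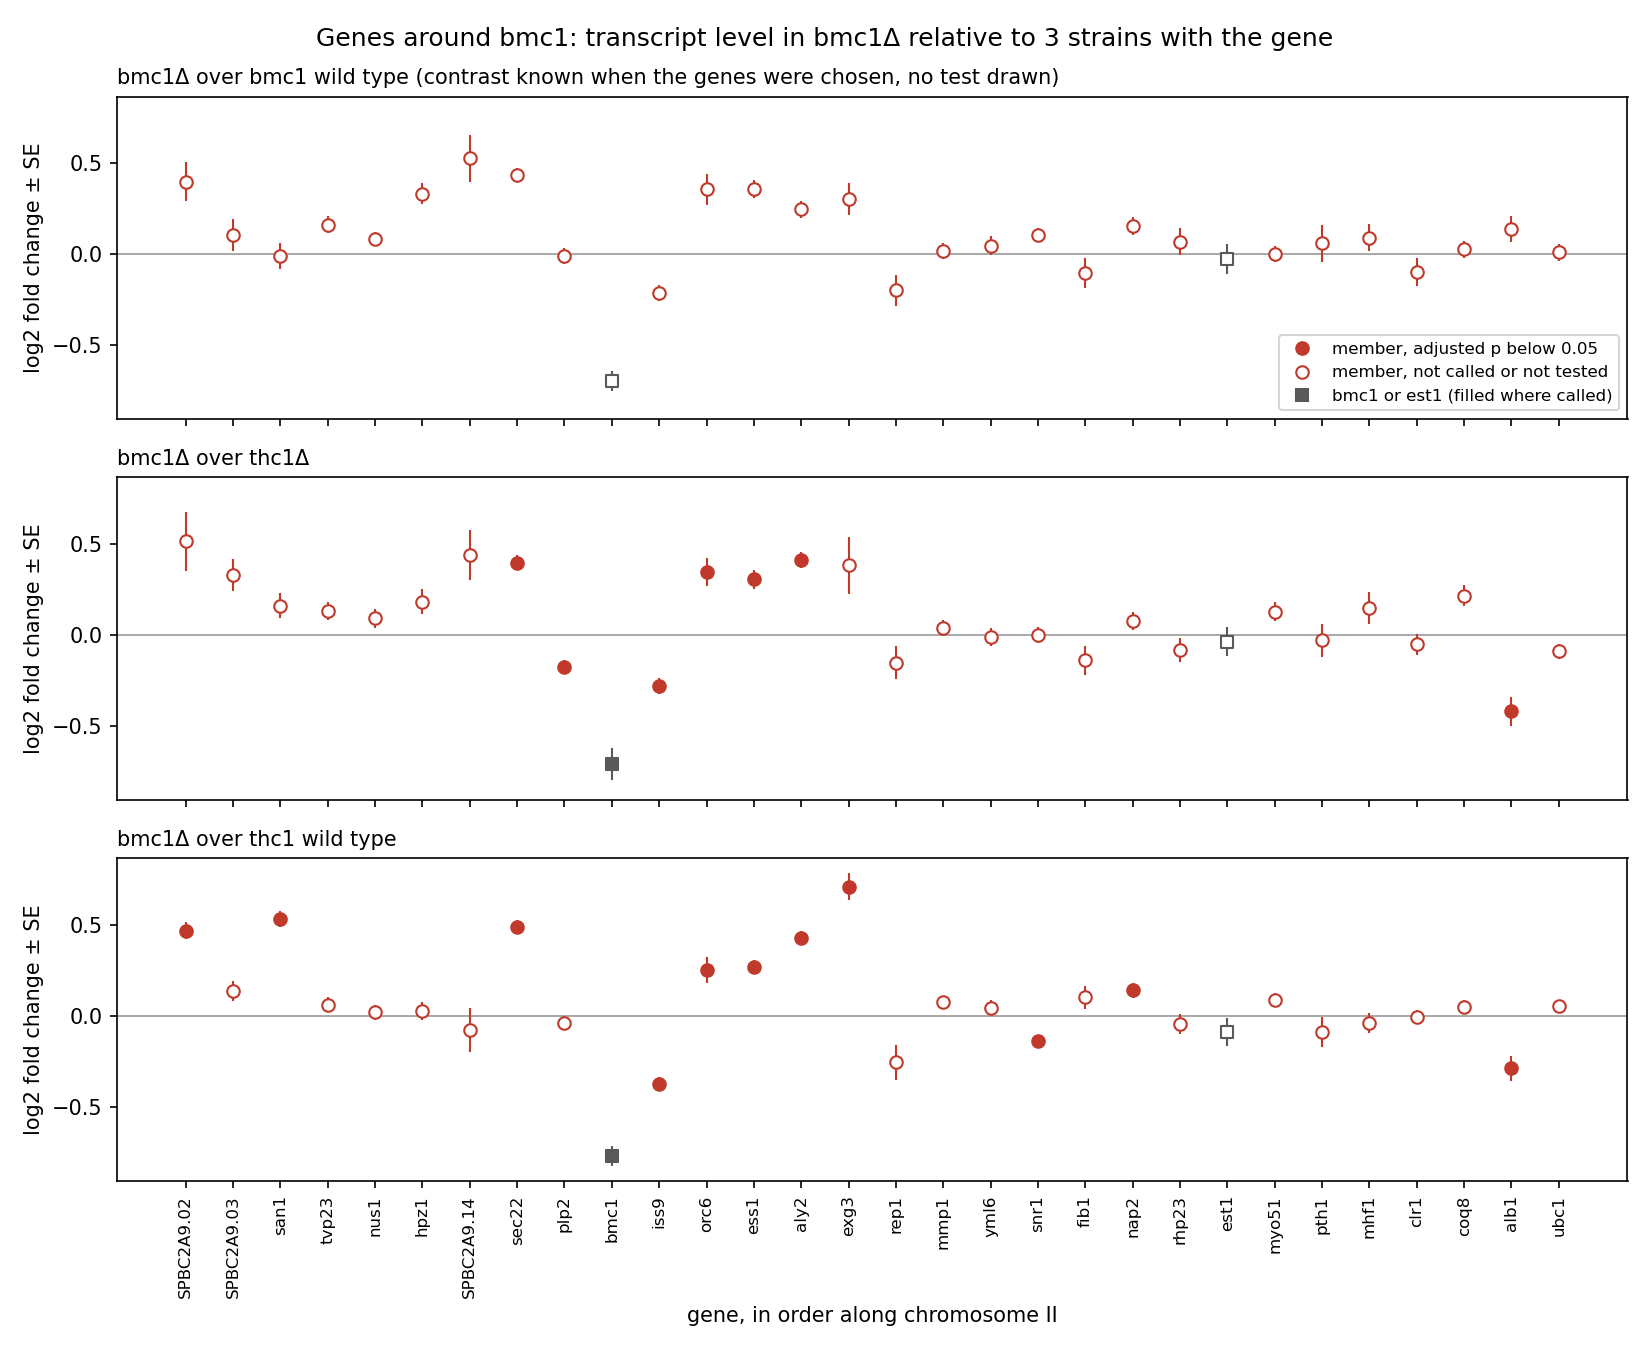
Log2 fold change ± SE (y axis) of the 28 tested genes (circles) and of *bmc1* and *est1* (squares), in order along the chromosome (x axis), for *bmc1*Δ over the *bmc1* wild type (top), over *thc1*Δ (middle) and over the *thc1* wild type (bottom). Filled symbols in the lower panels mark an adjusted p below 0.05. *sec22*, *orc6*, *ess1* and *aly2* lie above 0 and *iss9* below 0 in all 3 panels. Other genes also keep the same side in all 3, among them SPBC2A9.02, *exg3* and *nap2* above 0 and *rep1* below 0. The genes beyond *est1* reach from -0.42 to 0.22.

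Against the strains outside that contrast, the number of called neighbours is given beside the number over all genes. The *bmc1*Δ libraries are those on which the locus was selected. These counts, and the p values of single genes in *bmc1*Δ given below, are therefore not independent of that choice. In *bmc1*Δ against the *thc1* wild type, which differ in mating type and ancestry as well, 11 of 28 genes were called where 38.1% of all genes were, 8 of them higher (20.4% of all genes) and 3 lower (17.8%). Against *thc1*Δ, 7 of 28 genes were called where 10.6% of all genes were, 4 higher (5.91%) and 3 lower (4.7%). The share of members called was near the background in the first of these comparisons and above it in the second. In the second the count of higher genes was 2 without *bmc1*Δ replicate 2, *bmc1*Δ replicate 3 or *thc1*Δ replicate 2, and the count of lower genes was 1 without *bmc1*Δ replicate 3 and 0 without *thc1*Δ replicate 3. In the first the count of lower genes was 1 without *thc1* wild type replicate 1 or 2. The shares of all genes called in these fits with a library left out are not given. Median log2 fold changes of the 28 genes were 0.050 against the *thc1* wild type and 0.11 against *thc1*Δ, with medians over all genes tested of 0.0043 in both.

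A simpler view asks for which genes the 3 libraries of a strain lay outside the range of the other 9. For *bmc1*Δ this held for 7 of 28 members above the range, where it held for 1.58% of the 6279 genes kept over all libraries, and for 1 member below it, where it held for 1.5%. The members above were SPBC2A9.02, *sec22*, *orc6*, *ess1*, *aly2*, *exg3* and *nap2*, and the member below was *iss9*. They lay from 13.7 kb left of *bmc1* to 18.9 kb right of it, and none of the 7 genes beyond *est1* was among them. The same count for the *bmc1* wild type gave no member above (1.24% of all genes) and 1 below (*snr1*, 1.21%), for *thc1*Δ 2 above (*plp2* and *ubc1*, 5.29%) and 1 below (*coq8*, 6.96%), and for the *thc1* wild type 2 above (*iss9* and *snr1*, 8.36%) and 1 below (*san1*, 9.56%). The *bmc1*Δ libraries are those on which the locus was selected, and the *bmc1* wild type libraries of that contrast are among the other 9. The *bmc1*Δ count is therefore a description, is not independent of that choice and was not tested. It went to 9 above without *bmc1*Δ replicate 2 and to 8 without *bmc1* wild type replicate 1, and to 2 below without *bmc1*Δ replicate 3 or *thc1*Δ replicate 1.

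**Figure D2:**
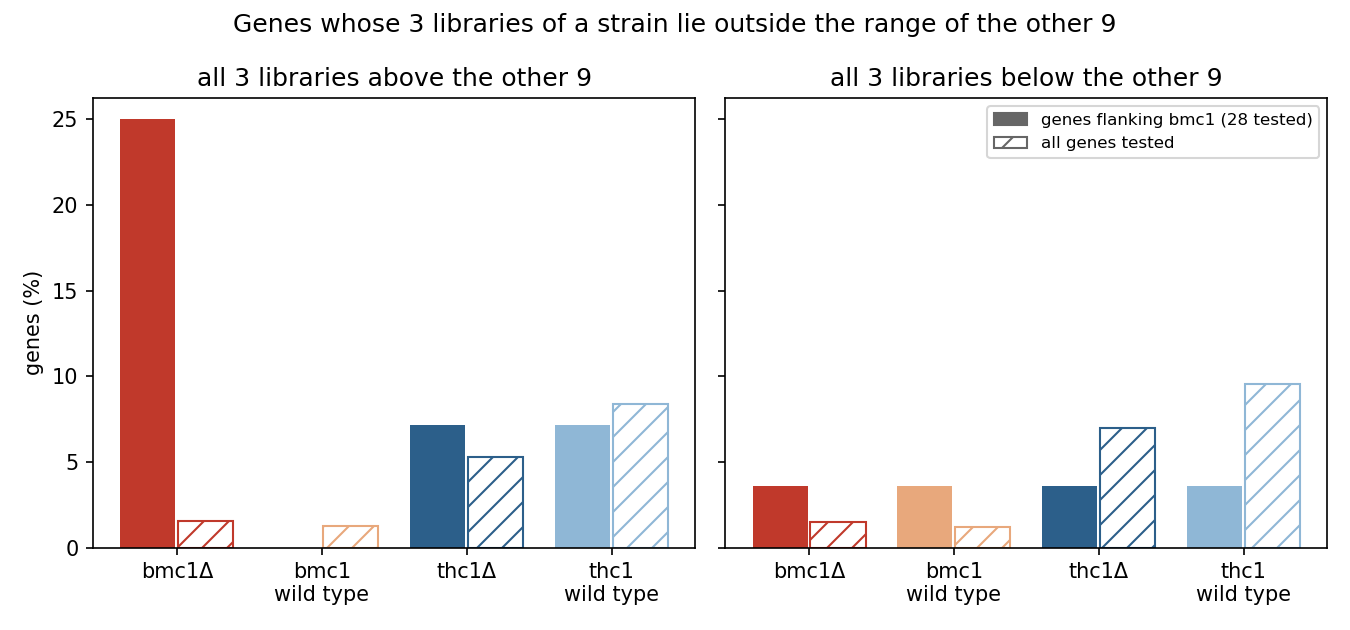
Share of genes (y axis, %) whose 3 libraries of a strain (x axis) all lay above (left) or below (right) the other 9 libraries, for the 28 tested neighbours of *bmc1* (solid bars) and all genes (hatched bars). In *bmc1*Δ 25% of the neighbours lay above, against 1.58% of all genes, and in the other strains the solid bars are between 0 and 7.14%. The locus was selected on the *bmc1*Δ and *bmc1* wild type libraries, so the *bmc1*Δ bars are not independent of that choice.

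*sec22*, the SNARE gene of transport between the endoplasmic reticulum and the Golgi, was higher in *bmc1*Δ than in both strains tested. Its level was 80.7, 83.4 and 81.2 CPM in *bmc1*Δ, against 59.3, 59.1 and 62.7 CPM in the *bmc1* wild type, 62.2, 60.4 and 63.8 CPM in *thc1*Δ and 58.5, 59.7 and 56.5 CPM in the *thc1* wild type. The *bmc1*Δ libraries were all above the other 9, of which the *bmc1* wild type libraries overlapped both other strains. The fold change was 1.35 over the *bmc1* wild type (log2 0.43 ± 0.039 SE), 1.40 over the *thc1* wild type (log2 0.49 ± 0.034, adjusted p = 0.000198) and 1.32 over *thc1*Δ (log2 0.40 ± 0.041, adjusted p = 0.00315). Both tested calls held without each library in turn. They use the *bmc1*Δ libraries on which the locus was selected, so they are not independent of that choice. Neither of the other strains set against the *thc1* wild type gave a call for *sec22*, with a log2 fold change of 0.056 in the *bmc1* wild type and 0.093 in *thc1*Δ, each over the *thc1* wild type.

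The other trafficking gene of the stretch, *tvp23*, annotated as a transport protein and lying 6.93 kb from *bmc1*, had 61.7, 56.1 and 59.0 CPM in *bmc1*Δ and between 51.2 and 57.4 CPM in the other libraries, which overlapped. It was called in neither tested comparison (log2 0.060 and 0.13). Of 11 further genes for SNAREs and a SNARE regulator of the early secretory pathway, elsewhere in the genome, 4 were higher in *bmc1*Δ than in the *thc1* wild type (*bos1*, *bet1*, *gos1* and *sft1*, log2 0.19 to 0.32), beside 20.4% of all genes higher. Of these, *bos1* and *gos1* were also higher in the *bmc1* wild type than in the *thc1* wild type (log2 0.15 and 0.27, adjusted p = 0.0138 and 0.0109). *sft1* was also higher in *thc1*Δ than in the *thc1* wild type (log2 0.17, adjusted p = 0.0448), and *bet1* was called in neither comparison. Against *thc1*Δ none of the 11 was called by edgeR or DESeq2 and 1 had an unadjusted p below 0.05, and their median log2 fold change was 0.019.

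**Figure D3:**
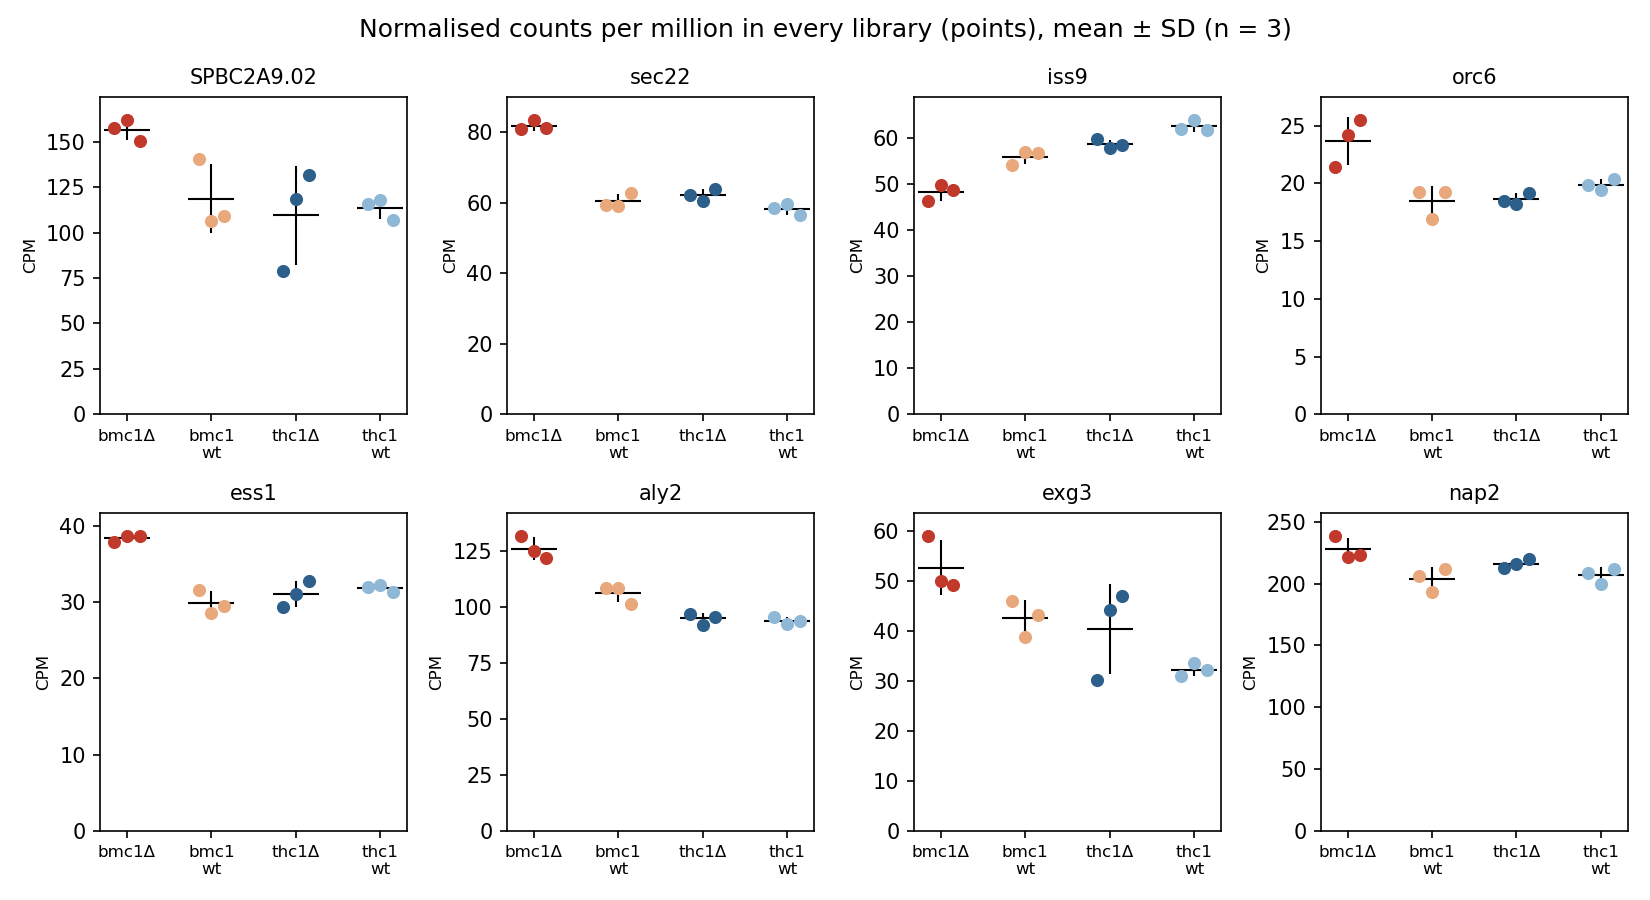
Level in CPM (y axis, from 0) in each library (points), with mean and SD over 3 libraries (black), for the 8 genes whose *bmc1*Δ libraries lay outside the range of the other 9, by strain (x axis). *sec22* and *ess1* show the clearest gap, and *iss9* is the gene for which *bmc1*Δ is lowest.

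*iss9*, annotated as a nuclear export factor and the immediate right-hand neighbour, was lower in *bmc1*Δ than in both strains tested. It had 46.2, 49.8 and 48.6 CPM in *bmc1*Δ, against 54.0, 56.8 and 56.6 CPM in the *bmc1* wild type, 59.7, 57.9 and 58.4 CPM in *thc1*Δ and 61.9, 63.8 and 61.7 CPM in the *thc1* wild type. The *bmc1*Δ values lay below all others, and the *bmc1* wild type values were the next lowest. The log2 fold change was -0.37 ± 0.039 over the *thc1* wild type (adjusted p = 0.00100) and -0.28 ± 0.044 over *thc1*Δ (adjusted p = 0.0121), against -0.22 ± 0.044 over the *bmc1* wild type. The call against *thc1*Δ was lost without *thc1*Δ replicate 3 (adjusted p = 0.0613). *iss9* was also lower in the *bmc1* wild type than in the *thc1* wild type (log2 -0.16 ± 0.035, adjusted p = 0.00737). The 2 coding regions are 141 nt apart and the transcripts overlap by 472 nt tail to tail, and the use of strand in counting is not given in the sources used here. The libraries were stranded, but whether the counting kept reads of *bmc1* and *iss9* in the overlap apart was not tested. Elsewhere in the stretch *coq8*, which lies wholly inside SPNCRNA.1570 on the other strand, had between 2584 and 3420 counts a library. SPNCRNA.1570 had between 95 and 241.

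Further genes to the right of *bmc1* were higher in *bmc1*Δ, starting with *orc6*, a subunit of the origin recognition complex that marks replication start sites. *orc6* had 21.4, 24.2 and 25.5 CPM in *bmc1*Δ, against 19.2, 16.9 and 19.2 CPM in the *bmc1* wild type, 18.5, 18.2 and 19.2 CPM in *thc1*Δ and 19.9, 19.4 and 20.4 CPM in the *thc1* wild type. *bmc1*Δ did not overlap any other strain, though its lowest value was close to the highest of the others. Its log2 fold change was 0.36 ± 0.085 over the *bmc1* wild type, 0.25 ± 0.071 over the *thc1* wild type (adjusted p = 0.0288) and 0.34 ± 0.079 over *thc1*Δ (adjusted p = 0.0366). Each of the tested calls was lost without any 1 of 5 of its 6 libraries, *bmc1*Δ replicate 1 being the exception (adjusted p between 0.0707 and 0.0988 against the *thc1* wild type and between 0.0724 and 0.104 against *thc1*Δ).

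*ess1*, which ends where *orc6* ends and to which RefSeq gives no function, was tighter among replicates. The *bmc1*Δ libraries had 38.0, 38.7 and 38.7 CPM, against 31.7, 28.6 and 29.6 CPM in the *bmc1* wild type, 29.5, 31.1 and 32.8 CPM in *thc1*Δ and 32.1, 32.3 and 31.4 CPM in the *thc1* wild type. No library of another strain came close to the *bmc1*Δ values. The log2 fold change was 0.36 ± 0.052 over the *bmc1* wild type, 0.27 ± 0.035 over the *thc1* wild type (adjusted p = 0.00212) and 0.30 ± 0.054 over *thc1*Δ (adjusted p = 0.0179). The last call was lost without *bmc1*Δ replicate 2 (adjusted p = 0.0559), *bmc1*Δ replicate 3 (0.058) or *thc1*Δ replicate 2 (0.068).

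*aly2* encodes an arrestin-like protein, of the kind that in budding yeast brings ubiquitin ligase to membrane transporters, and lies 5.75 kb to the right. It had 131, 125 and 122 CPM in *bmc1*Δ, against 108, 108 and 101 CPM in the *bmc1* wild type, 96.6, 92.0 and 95.5 CPM in *thc1*Δ and 95.4, 92.2 and 93.7 CPM in the *thc1* wild type. *bmc1*Δ was highest and its own wild type second, both apart from the h- strains. Fold changes were 1.18 over the *bmc1* wild type, 1.34 over the *thc1* wild type (log2 0.43 ± 0.037, adjusted p = 0.000490) and 1.33 over *thc1*Δ (log2 0.41 ± 0.046, adjusted p = 0.00445), and both calls held without each library in turn. The *bmc1* wild type was itself higher than the *thc1* wild type (log2 0.18 ± 0.036, adjusted p = 0.00493).

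*exg3*, for a cell wall glucan 1,3-beta-glucosidase, follows *aly2* on the same strand and was more variable. It had 59.0, 50.0 and 49.3 CPM in *bmc1*Δ, against 46.0, 38.9 and 43.2 CPM in the *bmc1* wild type, 30.2, 44.2 and 47.1 CPM in *thc1*Δ and 31.0, 33.6 and 32.2 CPM in the *thc1* wild type. The spread in *thc1*Δ came from its first replicate, which lay at the level of the *thc1* wild type. Over the *thc1* wild type the log2 fold change was 0.71 ± 0.074 (adjusted p = 0.00101), the largest of the 28 genes in that comparison. The *bmc1* wild type was also higher than the *thc1* wild type (log2 0.41 ± 0.063, adjusted p = 0.00141). *bmc1*Δ over *thc1*Δ gave a log2 fold change of 0.38 ± 0.16, which was not called (adjusted p = 0.152). The antisense transcript SPNCRNA.573 lies wholly within *exg3* and had between 56 and 105 counts a library, against at least 1044 for *exg3*.

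*nap2*, for a nucleosome assembly protein, was the farthest of the 8 genes at 18.9 kb. Its *bmc1*Δ libraries had 238, 222 and 223 CPM, against 207, 194 and 212 CPM in the *bmc1* wild type, 212, 216 and 220.0 CPM in *thc1*Δ and 209, 199.8 and 212 CPM in the *thc1* wild type. The gap to the highest of the other libraries was smaller than the spread within *bmc1*Δ. The difference from the *thc1* wild type (log2 0.14 ± 0.041, adjusted p = 0.0320) was lost without each *thc1* wild type library in turn (adjusted p = 0.0929, 0.119 and 0.0663), and that from *thc1*Δ was not called (log2 0.075, adjusted p = 0.327).

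*plp2*, for a phosducin family protein, shares its start region with *sec22* and lies between *sec22* and *bmc1*. It had 65.2, 66.2 and 67.7 CPM in *bmc1*Δ, against 65.0, 64.7 and 70.7 CPM in the *bmc1* wild type, 74.4, 75.6 and 74.8 CPM in *thc1*Δ and 68.8, 65.4 and 70.9 CPM in the *thc1* wild type. *bmc1*Δ overlapped both wild types, and *thc1*Δ was the strain that stood apart. The log2 fold change was -0.013 ± 0.045 over the *bmc1* wild type, -0.042 ± 0.039 over the *thc1* wild type and -0.18 ± 0.038 over *thc1*Δ (adjusted p = 0.0323), and the call against *thc1*Δ was lost without any 1 of the 6 libraries (adjusted p between 0.0544 and 0.104). Across the spacer of 145 nt printed above, *sec22* was higher in *bmc1*Δ than in both tested strains and *plp2* was not.

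*san1*, for a RING finger protein known in budding yeast as a ubiquitin ligase for misfolded nuclear proteins, was called against the *thc1* wild type alone. It had 118, 114 and 106 CPM in *bmc1*Δ, against 119, 119.5 and 103 CPM in the *bmc1* wild type, 91.9, 106 and 105 CPM in *thc1*Δ and 78.0, 77.1 and 79.3 CPM in the *thc1* wild type. *bmc1*Δ lay within the range of its own wild type, and the *thc1* wild type was below every other library. The log2 fold change over it was 0.53 ± 0.044 in *bmc1*Δ (adjusted p = 0.000394), 0.54 ± 0.055 in the *bmc1* wild type (adjusted p = 0.000169) and 0.37 ± 0.058 in *thc1*Δ (adjusted p = 0.00414).

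SPBC2A9.02, at the left end of the stretch and annotated in the NAD-dependent epimerase/dehydratase family, was the most distant left-hand gene to stand apart. It had 157, 162 and 151 CPM in *bmc1*Δ, against 141, 106 and 109 CPM in the *bmc1* wild type, 79.1, 118 and 132 CPM in *thc1*Δ and 116, 118 and 107 CPM in the *thc1* wild type. The first replicate was the highest in the *bmc1* wild type and the lowest in *thc1*Δ, and these are libraries that stand apart from their replicates over all genes. Against the *thc1* wild type the log2 fold change was 0.47 ± 0.046 (adjusted p = 0.000854), and this call held without each library in turn. Against *thc1*Δ it was 0.51 ± 0.16 and was not called (adjusted p = 0.0808), but passed without *thc1*Δ replicate 1 (log2 0.33, adjusted p = 0.0312).

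SPBC2A9.14, an uncharacterized gene 3.19 kb to the left, had the highest fitted log2 fold change over the *bmc1* wild type, 0.52 ± 0.13. It had 8.49, 8.11 and 11.1 CPM in *bmc1*Δ, against 6.28, 6.07 and 6.84 CPM in the *bmc1* wild type, 6.79, 6.34 and 7.28 CPM in *thc1*Δ and 9.22, 10.0 and 10.0 CPM in the *thc1* wild type. All *bmc1*Δ libraries were above those of the *bmc1* wild type and *thc1*Δ, and they overlapped the *thc1* wild type. Over *thc1*Δ the log2 fold change was 0.44 ± 0.14 and was not called (adjusted p = 0.0768), and over the *thc1* wild type it was -0.080 ± 0.12 (adjusted p = 0.631). The gene was lower in the *bmc1* wild type (log2 -0.61 ± 0.081, adjusted p = 0.000672) and in *thc1*Δ (log2 -0.52 ± 0.083, adjusted p = 0.00429) than in the *thc1* wild type. Its whole span of 544 nt is overlapped by the antisense transcript SPNCRNA.1567, which was higher in *bmc1*Δ than in *thc1*Δ (log2 0.39 ± 0.083, adjusted p = 0.0318). The *thc1*Δ libraries lay below all others for SPNCRNA.1567. *hpz1*, for a zinc finger protein implicated in DNA repair and overlapped by the same transcript, followed a like order, with a log2 fold change of 0.33 over the *bmc1* wild type, 0.026 over the *thc1* wild type and -0.31 ± 0.050 in the *bmc1* wild type over the *thc1* wild type (adjusted p = 0.00187).

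Farther right, *snr1*, for a protein of the mitochondrial small ribosomal subunit, had 70.5, 68.7 and 72.4 CPM in *bmc1*Δ, against 64.0, 64.5 and 68.0 CPM in the *bmc1* wild type, 73.6, 69.3 and 68.9 CPM in *thc1*Δ and 78.8, 77.5 and 77.0 CPM in the *thc1* wild type. It was lower in *bmc1*Δ than in the *thc1* wild type (log2 -0.14 ± 0.032, adjusted p = 0.0149), a call lost without *thc1* wild type replicate 1 (adjusted p = 0.0689) or 2 (0.0556). The *bmc1* wild type values lay below those of every other library, and were lower than in the *thc1* wild type (log2 -0.24 ± 0.035, adjusted p = 0.000895).

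*alb1*, for a ribosome biogenesis protein, is the one gene beyond *est1* that was called in a comparison of *bmc1*Δ. It had 17.8, 20.6 and 19.1 CPM in *bmc1*Δ, against 16.6, 18.2 and 17.4 CPM in the *bmc1* wild type, 27.0, 23.9 and 26.1 CPM in *thc1*Δ and 22.6, 24.8 and 22.8 CPM in the *thc1* wild type. Both h+ strains were below both h- strains. The log2 fold change of *bmc1*Δ was -0.29 ± 0.070 over the *thc1* wild type (adjusted p = 0.0176), a call lost without each *thc1* wild type library in turn (adjusted p = 0.05, 0.0705 and 0.05), and -0.42 ± 0.079 over *thc1*Δ (adjusted p = 0.0222), lost without *bmc1*Δ replicate 3 (0.0604) or *thc1*Δ replicate 3 (0.093). In the *bmc1* wild type it was -0.43 ± 0.061 over the *thc1* wild type (adjusted p = 0.000886).

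*fib1*, for the rRNA methyltransferase fibrillarin, and *rep1*, for an activator of the MBF cell cycle transcription factor, were called in neither tested comparison of *bmc1*Δ. *fib1* had 299, 358 and 322 CPM in *bmc1*Δ, against 333, 380.2 and 336 CPM in the *bmc1* wild type, 376, 336 and 367 CPM in *thc1*Δ and 299.5, 310.2 and 303 CPM in the *thc1* wild type, and passed against the *thc1* wild type without *bmc1*Δ replicate 1 (log2 0.16, adjusted p = 0.00515). *rep1* had 11.7, 12.3 and 13.4 CPM in *bmc1*Δ, against 15.6, 13.6 and 13.7 CPM in the *bmc1* wild type, 12.7, 14.9 and 13.9 CPM in *thc1*Δ and 13.4, 16.7 and 14.6 CPM in the *thc1* wild type. Its *bmc1*Δ values reached below all others but overlapped them, with a log2 fold change of -0.26 ± 0.10 over the *thc1* wild type (adjusted p = 0.0681).

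The other 13 tested genes were not called in *bmc1*Δ against either strain. They are SPBC2A9.03 (a WD repeat protein), *tvp23*, *nus1* (a prenyltransferase), *hpz1*, *mmp1* (an endopeptidase subunit), *yml6* (a mitochondrial ribosomal protein), *rhp23* (UV excision repair), *myo51* (a type V myosin), *pth1* (a peptidyl-tRNA hydrolase), *mhf1* (a histone-fold protein), *clr1* (a subunit of the silencing complex SHREC), *coq8* (ubiquinone biosynthesis) and *ubc1* (a ubiquitin conjugating enzyme). Their log2 fold changes ran between -0.090 and 0.14 over the *thc1* wild type and between -0.091 and 0.33 over *thc1*Δ. By position, the 9 tested genes on the left had a median log2 fold change over *thc1*Δ of 0.18, the 12 between *bmc1* and *est1* of 0.018 and the 7 beyond *est1* of -0.030, and over the *thc1* wild type the medians were 0.060, 0.088 and -0.0051.

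The genes differ widely in level, from *rep1* to *fib1*. Per kb of annotated exon in RefSeq, *fib1* was highest at 249.6 ± 22.7 CPM per kb in *bmc1*Δ and 268 ± 20.1 in the *bmc1* wild type (mean ± SD, n = 3 each), followed by *nap2* at 164 ± 6.67 and 146 ± 6.71. *rep1* was lowest, at 5.81 ± 0.399 and 6.66 ± 0.534 CPM per kb. *sec22* was at 69.8 ± 1.22 CPM per kb in *bmc1*Δ, against 51.5 ± 1.73 in the *bmc1* wild type, 53.1 ± 1.48 in *thc1*Δ and 49.7 ± 1.41 in the *thc1* wild type. *bmc1* itself, at 18.8 ± 0.621 CPM per kb in the *thc1* wild type, was expressed below *sec22*, *plp2* and *iss9* and close to *orc6* (20.9 ± 0.495).

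**Figure D4:**
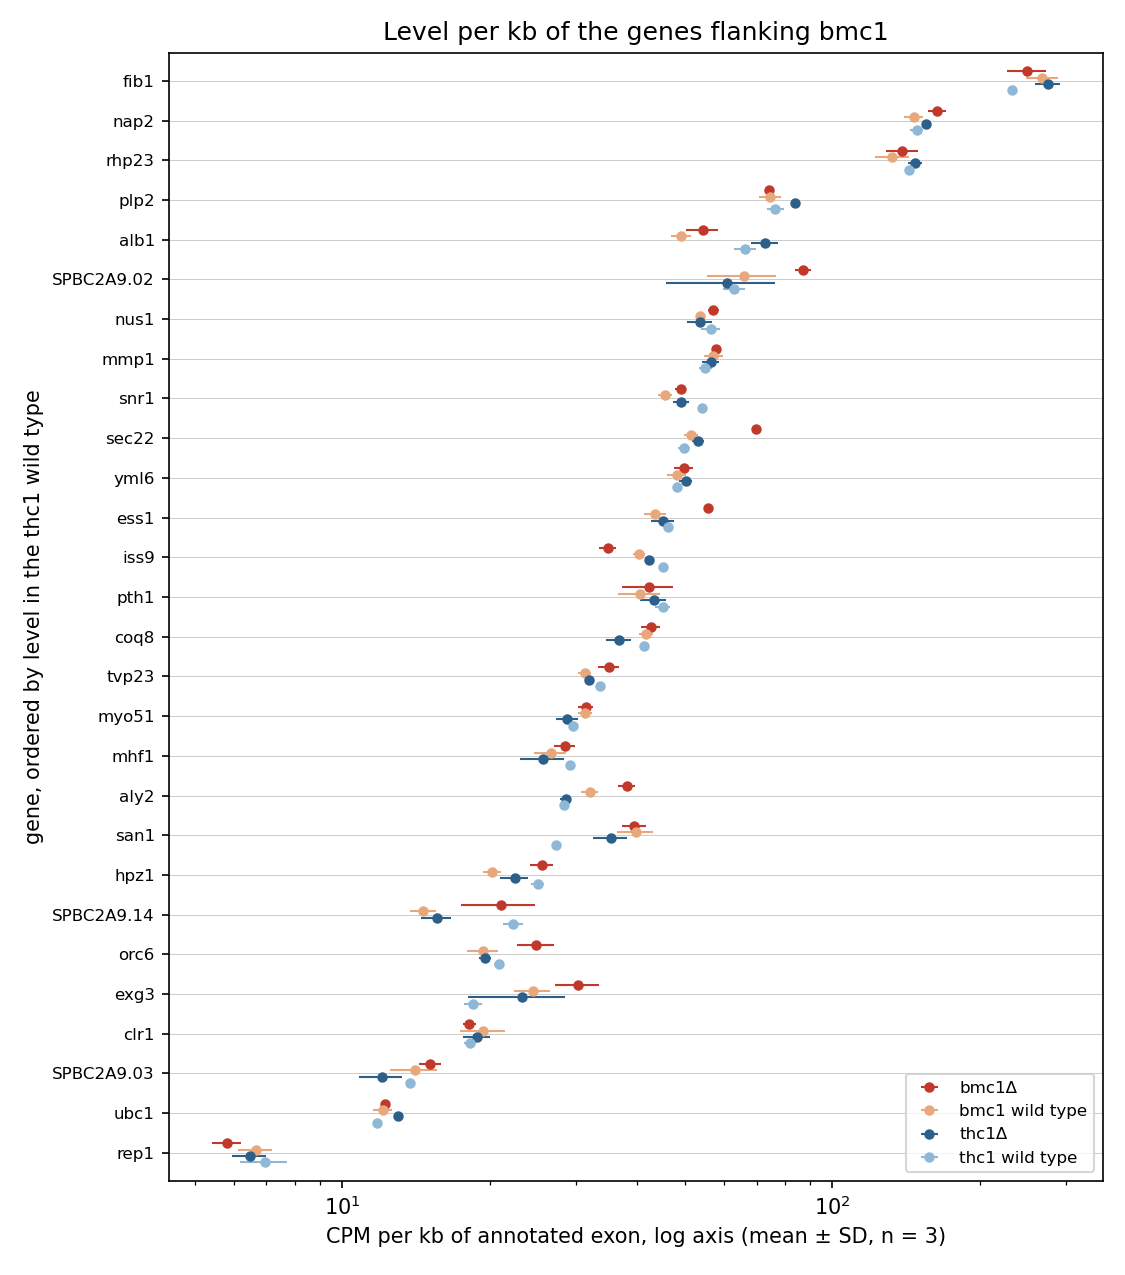
Level of the 28 tested genes in CPM per kb of annotated exon (x axis, log scale; mean ± SD, n = 3), ordered by the *thc1* wild type (y axis), with *bmc1*Δ, the *bmc1* wild type, *thc1*Δ and the *thc1* wild type from top to bottom within a gene. *fib1*, *nap2* and *rhp23* lie highest and *rep1* lowest. The *bmc1*Δ point stands to the right of the others for genes including SPBC2A9.02, *tvp23*, *sec22*, *orc6*, *ess1*, *aly2*, *exg3* and *nap2*.

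In the *bmc1* wild type compared with the *thc1* wild type, 10 of 28 were called where 41.4% of all genes were, 4 higher (*san1*, *aly2*, *exg3* and *fib1*) and 6 lower (*tvp23*, *hpz1*, SPBC2A9.14, *iss9*, *snr1* and *alb1*). In *thc1*Δ against the *thc1* wild type, 7 of 28 were called where 21.1% of all genes were, 4 higher (*san1*, *plp2*, *fib1* and *ubc1*) and 3 lower (SPBC2A9.14, *snr1* and *coq8*). These last counts rest on single libraries. Without *thc1*Δ replicate 1, which stood apart from its replicates over all genes, they were 7 and 8. Without each of the other 5 libraries they were 1 or 2. The shares of all genes called in those fits are not given, so the change is no result about the members. Both shares of members called, 35.7% and 25%, were near those of all genes. *sec22*, *orc6* and *ess1* were called in neither comparison.

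Of 7 tested genes inside the stretch but outside the chosen names, the kinesin gene *klp9*, which lies within *ubc1* on the other strand, was higher in *bmc1*Δ than in the *thc1* wild type (log2 0.45 ± 0.076, adjusted p = 0.00509). It was also higher in the *bmc1* wild type than in the *thc1* wild type (log2 0.39 ± 0.053, adjusted p = 0.000775). Against *thc1*Δ, the antisense transcript SPNCRNA.1566, which covers most of SPBC2A9.03, was lower (log2 -0.40 ± 0.10, adjusted p = 0.0471) and SPNCRNA.1567 was higher. For both, *thc1*Δ was the strain that stood apart, above all other libraries for SPNCRNA.1566 and below them for SPNCRNA.1567. The *bmc1*Δ libraries lay within the range of the others. In all, 20 of the 29 members overlap another gene of the table, 17 of them on the other strand. Whether their counts hold reads of a partner was not tested. For *coq8* and *exg3* the counts given above were far above those of the overlapping antisense transcripts.

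The other deletion offers the same view of a different locus. Of the 10 genes named SPCC18B5 beside *thc1*, 5 were called in *thc1*Δ against the *thc1* wild type where 21.1% of all genes were: *tho3*, *wee1*, *bfr1* and *dom34* were higher and SPCC18B5.02c was lower. For *wee1* and *bfr1* the *thc1* wild type was below all 9 other libraries, and both genes were also higher than in it in *bmc1*Δ and in the *bmc1* wild type. *tho3*, a THO complex gene next to *thc1*, had the largest difference (log2 0.85 ± 0.043, adjusted p = 2e-05), about 1.80-fold, larger than that of any neighbour of *bmc1* in the comparisons above. The libraries of *thc1*Δ were above the other 9 for *tho3* and *dom34* (5.29% of all genes) and below for SPCC18B5.02c (6.96%). In *bmc1*Δ none of these 10 genes lay outside the range of the other 9 libraries.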

How the data were processed

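Total RNA was depleted of rRNA and sequenced single-end from stranded libraries. The authors deposited raw read counts per gene, which per the labels and methods were made with STAR 2.5.2b on ASM294v2, with DESeq2 1.22.2 used downstream. Not given in the sources used here are the counting tool, the annotation and the handling of strand and of reads with several matches. Names, order, exon lengths and sequences come from RefSeq ASM294v3, matched by locus tag (6846 genes) or synonym (15), with 143 unmatched, and no coordinate was converted.

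Each pair of strains was fitted on its own with edgeR 4.0.16 (TMM, filterByExpr with a minimum count of 10, quasi-likelihood test, Benjamini-Hochberg over all genes tested) in R 4.3.3, after the code was tested on simulated data. The standard error is the absolute log2 fold change over the root of F. Alternatives were DESeq2 1.42.0, other scaling, no filter, the replicate as a block, a fit of all 12 libraries and leaving out each library. Deviations of same-numbered *bmc1*Δ and *bmc1* wild type libraries correlated (r = 0.48, 0.28 and 0.23). Replicate 2 of one strain with replicate 3 of the other gave r = 0.17 and 0.20. Pairing by number is therefore plain for replicate 1 and not settled for replicates 2 and 3.

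Genes named with values were the 4 coding members nearest to *bmc1* on each side, any member called in *bmc1*Δ against another strain, and the 3 highest and 3 lowest against its own wild type. Values of *tvp23*, *hpz1* and genes that are no members were added after they were seen. The members and lists were chosen with earlier results of these data known. Reads of natMX6 were not analysed here.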

Additional observations from a re-analysis of the deposited data

How the results depend on the processing

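For *bmc1*Δ against its own wild type, the count of higher genes was 5 with DESeq2, 2 in the fit of all 12 libraries, 10 with the replicate block (which also gave 1 lower gene) and 6 without replicate 1 of both strains, and ran between 0 and 1 with single libraries left out. Against the *thc1* wild type, the median log2 fold change was 0.070 scaled on library totals. With single libraries left out it ran between 0.044 and 0.058, and the count of lower genes between 1 and 3. Against *thc1*Δ, the count of higher genes was 8 with DESeq2 and 10 in the fit of all 12 libraries, and the median was 0.14 scaled on library totals. With single libraries left out there were 2 to 4 higher and 0 to 2 lower genes, and a median between 0.085 and 0.12. Same-numbered libraries of these strains did not deviate together, and the replicate block gave 2 higher and 0 lower genes. In the *bmc1* wild type compared with the *thc1* wild type the median ran between -0.054 and 0.0027. In *thc1*Δ against the *thc1* wild type the count of higher genes was 2 with DESeq2, 2 scaled on library totals and 2 with the replicate block, which gave 1 lower gene. With single libraries left out there were 1 to 7 higher and 1 to 8 lower genes and a median between -0.046 and 6.1e-05. The log2 fold change of SPBC2A9.02 ran there between -0.20 and 0.14, and turned to the upper value (adjusted p = 0.0385) without *thc1*Δ replicate 1. The number of genes below the range of the other libraries in *bmc1*Δ ran between 1 and 2. The causes were not tested. Calls over all genes also moved with the setting. Where the share over all genes is not printed beside a count, that count is no result about the neighbours. Each strain rests on 3 libraries of 1 isolate.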
